A study of Homo sapiens with 8 samples.

Results

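The Hippo kinase module of HCT116 cells, a human colorectal carcinoma line, was examined for mRNA level and for N6-methyladenosine (m6A), the methylated form of adenosine that many mRNAs carry. The module was taken as 10 genes chosen by symbol, namely NF2, WWC1, FRMD6, STK3, STK4, SAV1, LATS1, LATS2, MOB1A and MOB1B. All 10 were among the 19475 entries of the expression table, and 8 of them were among the 11155 gene names of the m6A peak lists. The rule used symbols and no measured value, and the genes were picked with earlier results of these data known.

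The cells were exposed for 2 h to Fusobacterium nucleatum, a bacterium found in colorectal tumours, at 100 bacteria per cell (FUSO), or to PBS (Control), and m6A sequencing was carried out to ask whether the bacterium changes the mark. Poly(A) RNA fragments were sequenced before selection (input) and after pull-down with an m6A antibody (IP), giving the groups Control input, Control IP, FUSO input and FUSO IP with 2 libraries each. The methods describe 2 biological replicates, and the labels give only a replicate number. All libraries came from 1 cell line, both groups carried the same genotype, and the only stated difference was the bacterium.

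Relative to the input of Control 1, the inputs of Control 2, FUSO 1 and FUSO 2 were sequenced 1.11, 1.24 and 0.915 times as deeply. Absolute read numbers, and any depth for the IP libraries, were unknown. Of 8 markers of colon epithelium, 7 were at or above 1 FPKM (fragments scaled to transcript length and to all mapped fragments) in every input, including KRT8 and EPCAM, and VIL1 was at or near 0. Of 9 markers of blood, stromal and endothelial cells, 8 were below 1 FPKM in every input and 3 of these were at 0 throughout, while COL1A1 lay between 3.78 and 5.72 FPKM. In bulk RNA, fewer cells of a kind and less RNA per cell cannot be told apart.

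The Hippo pathway is a kinase cascade that restrains the growth of epithelia. NF2 (merlin), WWC1 (KIBRA) and FRMD6 (willin) gather the cascade at the cell cortex, where the MST kinases (STK3 and STK4), with their scaffold SAV1, activate the LATS kinases and the MOB1 coactivators. The LATS kinases then phosphorylate the transcriptional coactivators YAP1 and WWTR1 (TAZ), which keeps them out of the nucleus and holds down their target genes. In the intestine the pathway limits regeneration and tumour growth. Much of its regulation lies in phosphorylation and protein location, which these measurements do not show.

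At the mRNA level no member of the module passed the test. With limma on log2(FPKM + 1), 0 of 10 members were called at an adjusted p under 0.05, against 0.803% of the 11088 genes tested (89 genes, 74 higher and 15 lower in FUSO). At an unadjusted p under 0.05 there was 1 member, LATS2, and 1496 of all genes tested. The median log2 fold change was 0.07 over the members and 0.01 over all genes tested. The FUSO and Control libraries did not overlap for 3 members, SAV1, LATS1 and LATS2, all higher in FUSO, beside 47.2% of all genes tested in either direction and 26.1% in the higher direction. The 3 of 10 members lay close to the latter share.

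**Figure D1:**
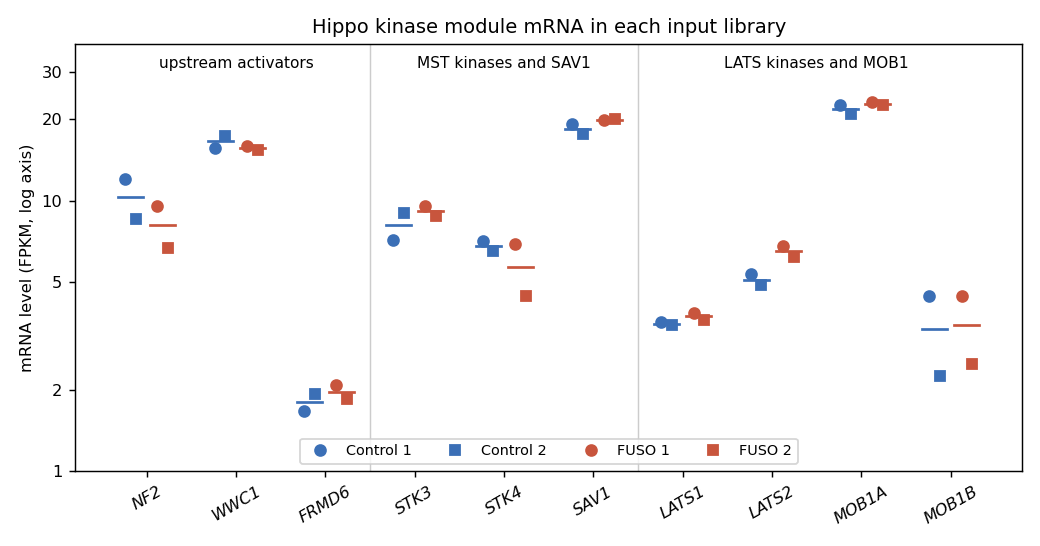
mRNA level of each member in FPKM (log axis), with circles for replicate 1, squares for replicate 2 and a line at the mean of each group of 2 libraries. MOB1A, SAV1 and WWC1 lie highest, and FRMD6 lies lowest at 1.67 to 2.09 FPKM. For all members but LATS1 and LATS2, the replicates of at least 1 group are spread more widely than the group means differ.

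The levels in FPKM, which are scaled by transcript length, ran in the order MOB1A, SAV1, WWC1, NF2, STK3, STK4, LATS2, LATS1, MOB1B and FRMD6, with means over the 4 inputs from 22.3 down to 1.89 FPKM. Of the 9 pairs of neighbours in this order, 3 had overlapping values and so did not differ beyond the spread between libraries. These were NF2 with STK3, STK4 with LATS2, and LATS1 with MOB1B.

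Among the upstream activators, NF2, which recruits the LATS kinases to the membrane, was at 12.1 and 8.57 FPKM in the Control inputs against 9.56 and 6.70 FPKM in the FUSO inputs. The groups overlapped, and replicate 2 was the lower library in both. The mean was 10.3 ± 2.48 FPKM in Control and 8.13 ± 2.02 FPKM in FUSO (SD, n = 2 each). The log2 fold change was -0.31 (95% confidence interval -0.82 to 0.20, limma adjusted p = 0.532). Without Control replicate 1 or FUSO replicate 2 the log2 fold change of NF2 shrank to -0.09 and -0.08, and without either of the other libraries it was -0.54.

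WWC1, a scaffold that binds NF2 and the LATS kinases, was at 15.7 and 17.4 FPKM in Control against 15.9 and 15.4 FPKM in FUSO. These ranges overlapped, with a log2 fold change of -0.08 (-0.27 to 0.12, limma adjusted p = 0.680). FRMD6, a FERM-domain protein of the cell cortex, was the lowest of the module at 1.67 and 1.93 FPKM in Control and 2.09 and 1.86 FPKM in FUSO. Its groups overlapped as well, with a log2 fold change of 0.09 (-0.17 to 0.34, adjusted p = 0.729).

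Of the MST kinases, STK3 (MST2) was at 7.19 and 9.04 FPKM in Control against 9.58 and 8.76 FPKM in FUSO. The Control values enclosed one FUSO value, and the log2 fold change was 0.16 (-0.13 to 0.46, limma adjusted p = 0.566), or 0.017 without Control replicate 1 and 0.31 without Control replicate 2. STK4 (MST1) was at 7.10 and 6.54 FPKM in Control against 6.93 and 4.43 FPKM in FUSO. Here FUSO replicate 2 alone lay apart from the other libraries, and the log2 fold change of -0.25 (-0.71 to 0.20, adjusted p = 0.568) became 0.02 without it and -0.52 without FUSO replicate 1.

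SAV1, the scaffold that joins the MST kinases to the LATS kinases, was at 19.3 and 17.7 FPKM in Control against 19.9 and 20.03 FPKM in FUSO. Both FUSO libraries were above both Control libraries, by a log2 fold change of 0.11 (-0.07 to 0.28, limma adjusted p = 0.536).

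Of the LATS kinases, LATS2 had the largest value in the higher direction. It was at 5.35 and 4.87 FPKM in Control against 6.79 and 6.22 FPKM in FUSO, so that the groups did not overlap. The mean was 5.11 ± 0.336 FPKM in Control and 6.503 ± 0.405 FPKM in FUSO (SD, n = 2 each), and the log2 fold change was 0.30 (0.07 to 0.52), which did not pass correction (limma adjusted p = 0.286). LATS2 is also a transcriptional target of YAP1 in several cell types. LATS1 was at 3.55 and 3.46 FPKM in Control against 3.84 and 3.64 FPKM in FUSO, again without overlap, and the log2 fold change was 0.07 (-0.14 to 0.28, adjusted p = 0.723).

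The MOB1 coactivators, which bind the LATS kinases and open them for activation, differed between each other in level but showed no call. MOB1A was at 22.6 and 21.0 FPKM in Control against 23.2 and 22.5 FPKM in FUSO, with a log2 fold change of 0.07 (-0.10 to 0.24, limma adjusted p = 0.682). MOB1B was at 4.46 and 2.25 FPKM in Control against 4.44 and 2.48 FPKM in FUSO. In both groups replicate 1 was the higher library of MOB1B, and its log2 fold change of 0.05 had the widest interval of the module (-0.72 to 0.82, adjusted p = 0.964).

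**Figure D2:**
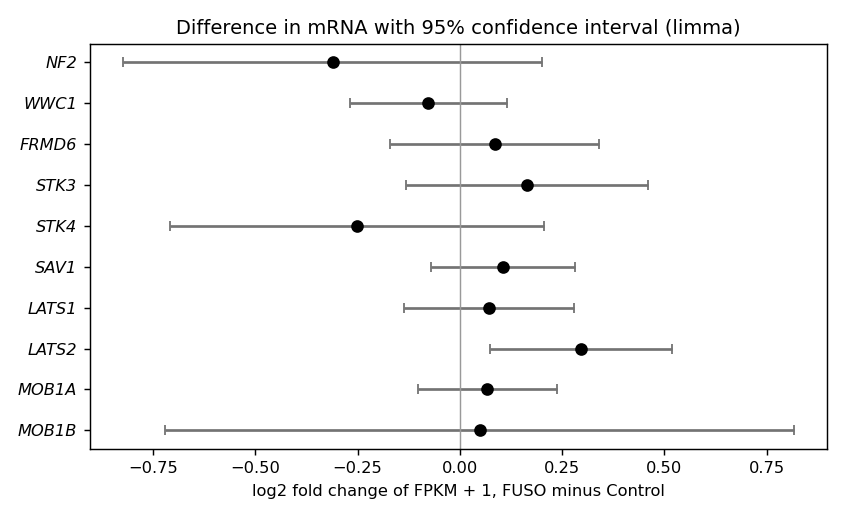
Log2 fold change of FPKM + 1 between FUSO and Control for each member (points) with its 95% confidence interval from limma (bars), over 2 inputs a group. The interval of LATS2 (0.07 to 0.52) lies above 0, and those of the other 9 members include 0.

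The wider pathway was described in 4 lists of genes around the module. Of the upstream scaffolds and polarity genes, 14 of 17 were tested and 0 were called by limma, with 2 at an unadjusted p under 0.05 and a median log2 fold change of 0.05. AMOTL2, an angiomotin that binds YAP1, was at 9.14 and 12.8 FPKM in Control against 32.9 and 15.5 FPKM in FUSO. Its log2 fold change of 1.0 (0.13 to 1.87, limma adjusted p = 0.330) became 0.48 without FUSO replicate 1 and 1.52 without FUSO replicate 2. The polarity protein SCRIB had a log2 fold change of -0.25 (adjusted p = 0.234), the phosphatase PTPN14 0.20 (adjusted p = 0.387) and the polarity protein DLG1 0.13 (adjusted p = 0.588), or 0.25 without FUSO replicate 1 and 0.015 without FUSO replicate 2.

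Of further kinases linked to the pathway and the RASSF proteins that bind the MST kinases, 17 of 18 were tested and 0 were called by limma. In this list 2 had an unadjusted p under 0.05, and the median log2 fold change was 0.07. The kinase TNIK was at 3.56 and 2.11 FPKM in Control against 4.45 and 4.22 FPKM in FUSO. With all 4 inputs its log2 fold change was 0.50 (0.04 to 0.97, limma adjusted p = 0.347). It was 0.78 without Control replicate 1 and 0.23 without Control replicate 2, given as effect sizes only because 1 Control library was left. TAOK3 (0.23, adjusted p = 0.374) and TAOK2 (-0.19, adjusted p = 0.361), kinases that can phosphorylate the MST kinases, had log2 fold changes of opposite sign, and that of STK38L, a relative of the LATS kinases, was 0.22 (adjusted p = 0.528), or 0.027 without Control replicate 1 and 0.42 without Control replicate 2.

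Of the restraints of the kinases, which hold the STRIPAK phosphatase complex and LATS-binding proteins, 22 of 22 were tested and 0 were called by limma, with 3 at an unadjusted p under 0.05 and a median log2 fold change of 0.08. SIAH2, a ubiquitin ligase that acts on LATS2, was at 18.5 and 17.5 FPKM in Control against 22.7 and 23.3 FPKM in FUSO. The groups of SIAH2 did not overlap, and the log2 fold change was 0.34 (0.17 to 0.51, limma adjusted p = 0.155). AJUBA, a LIM protein that binds the LATS kinases, had a log2 fold change of 0.28 (adjusted p = 0.282), CTTNBP2NL of STRIPAK 0.23 (adjusted p = 0.421, and 0.12 without Control replicate 1) and the phosphatase subunit PPP2CB 0.19 (adjusted p = 0.329).

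Downstream of the module, 11 of 11 effectors and targets were tested, 2 rose by the limma test, none fell, and 4 had an unadjusted p under 0.05. CYR61, a secreted matrix protein and YAP1 target, was at 41.9 and 39.7 FPKM in Control against 75.3 and 79.1 FPKM in FUSO, and it rose by a log2 fold change of 0.90 (0.75 to 1.06, limma adjusted p = 0.00665). CTGF, a matrix protein and target of the same kind, was at 4.41 and 4.50 FPKM in Control against 7.53 and 8.15 FPKM in FUSO, and it rose by 0.70 on the log2 scale (0.49 to 0.90, adjusted p = 0.0325). Neither call held with a FUSO library left out, while the log2 fold changes stayed close. Without FUSO replicate 1 they were 0.94 for CYR61 (adjusted p = 0.102) and 0.75 for CTGF (adjusted p = 0.203), and 25 of all genes were called. Without FUSO replicate 2 they were 0.87 (adjusted p = 0.1003) and 0.65 (adjusted p = 0.249), and 17 of all genes were called.

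The coactivator YAP1 was at 9.06 and 11.0 FPKM in Control against 14.9 and 14.2 FPKM in FUSO. Its log2 fold change of 0.50 (0.25 to 0.76) did not pass (limma adjusted p = 0.169). The log2 fold change of YAP1 was 0.38 without Control replicate 1 and 0.63 without Control replicate 2. The target ANKRD1 had a log2 fold change of 0.31 (adjusted p = 0.291). The median of the list was 0.18. Whether the targets changed by more than the kinase module was not tested.

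**Figure D3:**
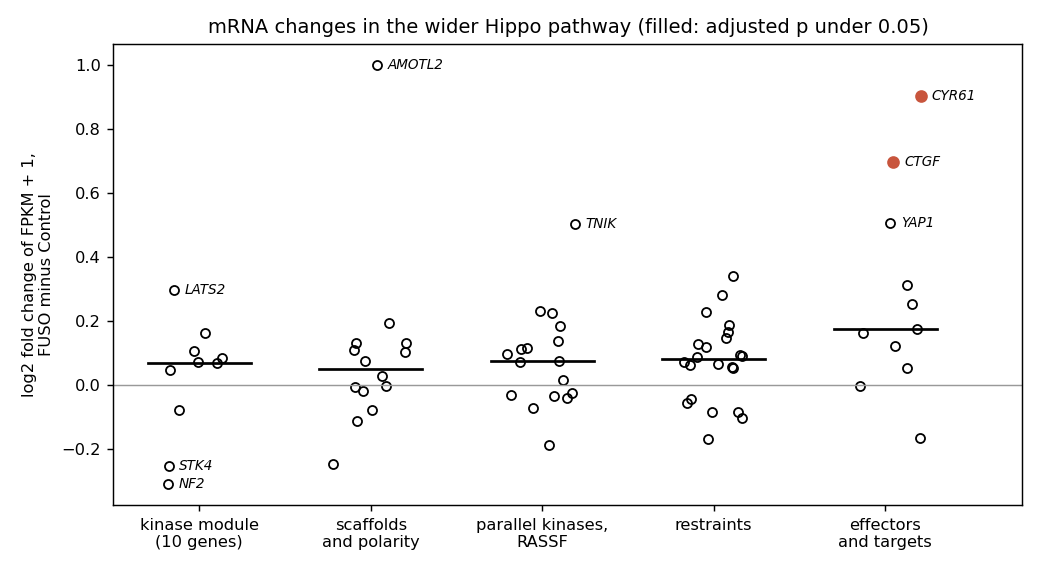
Log2 fold change of FPKM + 1 between FUSO and Control for the tested genes of the kinase module and of 4 lists around it, with a line at each median and filled points for an adjusted p under 0.05. The filled points are CYR61 (0.90) and CTGF (0.70), both among the effectors and targets, and the module spans -0.31 (NF2) to 0.30 (LATS2).

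In the m6A data, the 4 deposited lists give 1 set of peaks for each replicate, called from the IP against its input, with a score per peak and no measure of height. The score was taken for an uncorrected p-value, so that a smaller score is a firmer call, and it depends on the depth of the list as well as on the amount of m6A. Members of the module held 22 and 19 peaks in the Control lists and 22 and 25 in the FUSO lists, 88 of 70751 peaks in all. The mean number was 20.5 ± 2.12 in Control and 23.5 ± 2.12 in FUSO (SD, n = 2 each), a difference within the spread between lists (two-sided exact permutation p = 0.667, where the smallest possible value with 2 lists against 2 is 0.333). The length covered was 7984 and 9420 nt in Control and 9482 and 8468 nt in FUSO, with an exact permutation p of 0.667.

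Merging peaks that shared at least 1 bp of exon on the same strand gave 27 regions in the module, of 22001 in all. Of these, 14 had a peak in all 4 lists, against 51.5% of all regions, 4 had a peak in 3 lists, 4 in 2 and 5 in 1. A region was called lost when both Control lists and neither FUSO list held a peak, and gained in the reverse case. The module had 1 lost region, against 2.64% of all regions, and 2 gained regions, against 2.38%. By gene, 1 of the 8 members with peaks had a lost region (WWC1, against 5.08% of all genes with a peak) and 1 had gained regions (NF2, against 4.61%).

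At least 1 region in all 4 lists was found in 8 of 10 members, against 67.2% of the genes tested for mRNA. These were all 8 members with a peak, against 73.9% of all genes with a peak. MOB1A and MOB1B had no peak in any list, as did 16.1% of the genes tested. MOB1A had the highest FPKM of the module, and of the 2979 tested genes at or above its level 18.8% had no peak. For the 8581 genes at or above the level of MOB1B the share was 14.6%. The coding sequences of MOB1A and MOB1B were both 651 nt long with the stop codon, the shortest of the module, and lay in mRNAs of 4896 and 6930 nt.

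**Figure D4:**
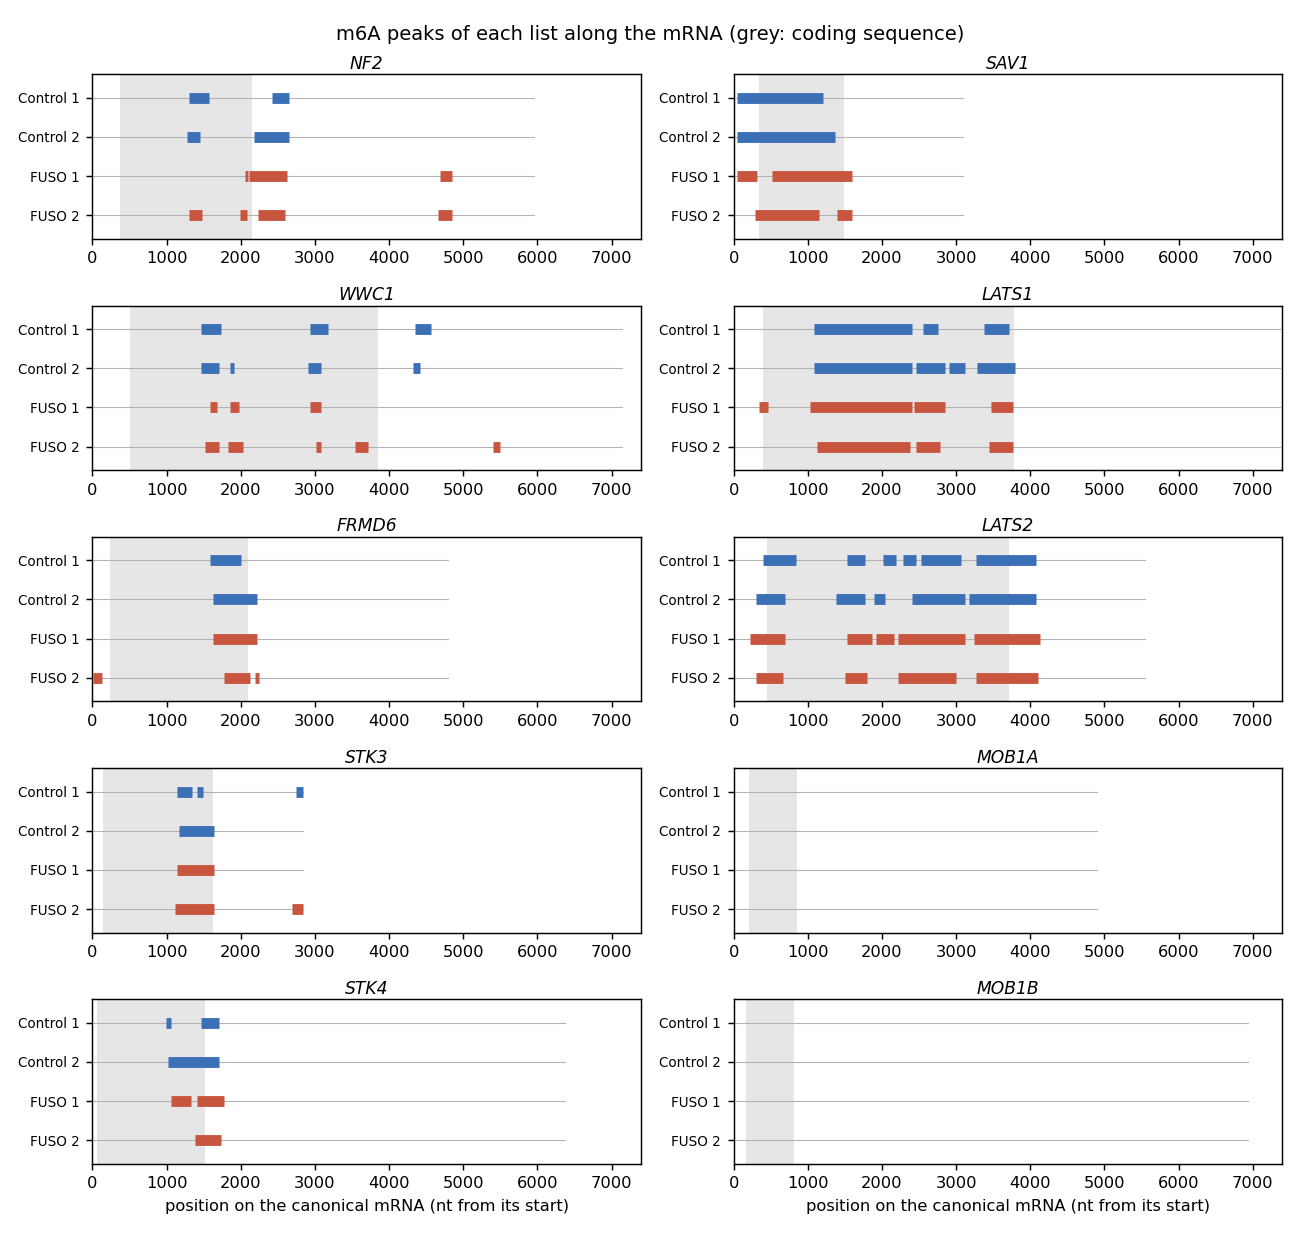
m6A peaks of each list (bars, blue for Control and red for FUSO) along the canonical mRNA of each member, in nt from its start, with the coding sequence in grey. Several bars of LATS1 and LATS2, though not all, recur at the same places in all lists. The bars of NF2 in the 3′UTR near its far end appear in the FUSO lists, and MOB1A and MOB1B have none. Peak stretches outside the canonical transcript, as in STK4 and NF2, are not drawn.

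By midpoint, 17 of the 27 regions lay in the coding sequence (CDS), 5 in the 3′UTR, 1 in the 5′UTR, 1 within 100 nt of the stop codon and 3 on exons that the canonical transcript lacks in part or in whole. The midpoint of a long region can hide the stop codon. Regions of LATS1, LATS2, SAV1, FRMD6, NF2, STK3 and STK4 ran across it. Of the 88 single peaks, 61 had their midpoint in the CDS and 8 within 100 nt of the stop codon. No share over all regions was set beside these classes. The consensus of the m6A methyltransferase centres on the letters GGAC, searched here on the mRNA strand only. GGAC occurred in 20 of the 27 regions, at 67 sites, and in 72.8% of all regions. Median GC content was 49.8% in the regions of the module and 51.5% in all regions. Sequences are printed below for parts of the gained regions and for some WWC1 CDS regions missing from 1 or more lists. For FRMD6, SAV1, LATS1 and LATS2 a stretch around 1 GGAC site is printed. All come from GRCh37 (hg19) on the mRNA strand, with every GGAC in capitals except where a single site is shown.

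NF2 held both gained regions. Its peaks numbered 2 and 2 in Control and 3 and 4 in FUSO, covering 512 and 662 nt against 843 and 814 nt. Both measures were higher in both FUSO lists than in either Control list (exact permutation p = 0.333 each, the smallest possible). Of the 8 members with a peak, NF2 and SAV1 had such a pattern in the number of peaks, against 5.41% of all genes with a peak, and NF2 and STK3 in the covered length, against 14.3%. The first gained region, chr22:30077479-30079137 on the + strand, consisted of 112 nt of CDS in exon 15 of 16 and 129 nt of a downstream exon that the canonical transcript skips and that 9 of 15 annotated NF2 transcripts carry at least in part. Its FUSO 1 peak (score 5.9e-06) and FUSO 2 peak (score 0.0024) shared 31 nt, at chr22:30077539-30077569. The region held no GGAC, whereas 70.4% of regions of like length did. The second, chr22:30093300-30093480, was 181 nt in the 3′UTR (exon 16), with a score of 0.0016 in FUSO 1, a score of 1.7e-05 in FUSO 2 and 151 nt shared. It held 1 GGAC, and 60.1% of regions of like length held at least 1. The CDS stretch of the first region and the 30 nt around the GGAC of the second (chr22:30093356-30093385) read as follows.
NF2 exon 15, chr22:30077479-30077590: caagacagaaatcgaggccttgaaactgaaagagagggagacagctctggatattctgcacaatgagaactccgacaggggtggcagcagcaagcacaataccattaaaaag
NF2 3′UTR: gctgggaactgcaGGACcttgctcagccag

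None of the 4 peaks behind the NF2 gains was strong within its list. In FUSO 1 they stood at 63.5% and 90.9% of the list ordered from the smallest score, and in FUSO 2 at 93.4% and 66.1%. With only peaks with a score at or below 1e-05 counted, NF2 had no gained region and instead a lost one, and under a reciprocal overlap of 50% it had 1 gained region. The other NF2 regions were a 301-nt CDS region of exons 10 to 12, chr22:30064343-30069342, with scores of 1.3e-10 and 4.2e-08 in Control, 2.4e-05 in FUSO 2 and no peak in FUSO 1, and a 541-nt region from the last codons into the 3′UTR, chr22:30090752-30091292, present in all 4 lists with scores of 5.5e-09 and 1.9e-06 in Control and 7.4e-09 and 3.3e-06 in FUSO.

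WWC1 held the lost region. It was 241 nt of the 3′UTR in exon 23 of 23, chr5:167896493-167896733 on the + strand, with a score of 1.2e-09 in Control 1 and a score of 0.0069 in Control 2, and it had no GGAC, which 70.4% of regions of like length held. The Control 2 peak stood at 99.0% of its list, near the weakest peaks, and shared 61 nt with that of Control 1. The region was no longer counted as lost under a reciprocal overlap of 50%, nor with only peaks with a score at or below 1e-05. WWC1 also had 2 CDS regions in all 4 lists, one in exons 9 and 10 with scores from 1.7e-10 to 0.00017 and one in exons 16 to 19 with scores from 3.2e-19 to 3e-05. In both, the smallest score was that of Control 1.

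A further CDS region of WWC1 in exon 11, chr5:167850578-167850788, had no peak in Control 1, a score of 0.0048 in Control 2, 8.1e-05 in FUSO 1 and 1.4e-09 in FUSO 2. Another in exons 21 and 22, chr5:167891851-167894908, had a peak in FUSO 2 alone (score 1.2e-10). Both held 2 GGAC sites, and 65.0% and 60.1% of regions of like length held at least 1. Over WWC1 as a whole, peaks covered 722 and 573 nt in Control and 362 and 725 nt in FUSO, so that the lists of 1 group differed from each other by more than the group means (exact permutation p = 1.0). The sequences of these 2 regions, the second spliced across its exon junction, were as follows.
WWC1 exon 11: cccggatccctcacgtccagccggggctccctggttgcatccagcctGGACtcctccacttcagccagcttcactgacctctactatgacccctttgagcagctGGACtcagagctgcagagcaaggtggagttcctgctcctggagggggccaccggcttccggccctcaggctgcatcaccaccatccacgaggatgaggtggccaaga
WWC1 exons 21 and 22: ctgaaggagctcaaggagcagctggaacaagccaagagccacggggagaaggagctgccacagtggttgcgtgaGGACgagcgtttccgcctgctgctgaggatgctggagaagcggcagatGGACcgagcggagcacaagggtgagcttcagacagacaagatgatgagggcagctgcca

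FRMD6 had 1 region in all 4 lists, 660 nt across exons 11 to 14 and the stop codon, chr14:52187105-52194894 on the + strand, with scores of 1.7e-06 and 1e-12 in Control and 2.8e-10 and 1.3e-09 in FUSO. A 121-nt region of the 5′UTR, in exons 1 and 2, had a peak in FUSO 2 alone (score 0.00035). The covered length was 421 and 600 nt in Control and 600 and 543 nt in FUSO, and the groups overlapped. The first region had 3 GGAC sites, of which the one shown lies in the CDS at chr14:52194554-52194583.
FRMD6 exon 14: caggtctgtgtcaGGACactgctcagagtt

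The MST kinases each carried a region near the end of the CDS in all 4 lists. In STK3 it was 537 nt of exons 9 to 11, at 1107 to 1643 nt of the mRNA, with scores of 7.6e-07 and 6.2e-06 in Control and 6.3e-17 and 5e-12 in FUSO. Both FUSO scores were the smaller ones, which says nothing of the amount of m6A where the depth of the lists is unknown. STK3 peaks covered 389 and 478 nt in Control and 507 and 687 nt in FUSO, without overlap (exact permutation p = 0.333, the smallest possible). A second STK3 region of 150 nt at the end of the 3′UTR had a peak in Control 1 (score 0.0051) and FUSO 2 (score 2.3e-05).

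In STK4 the merged region with a peak in all 4 lists ran over exons 8 to 11, chr20:43629138-43704064 on the + strand. The scores were 7.8e-05 and 2.1e-10 in Control and 1e-16 and 3.2e-11 in FUSO. Only in Control 2 did 1 peak join exons 9 to 11, and in FUSO 2 the region had a peak in exon 11 alone. Of the 1051 nt of STK4 in any peak, 240 nt (22.8%) were in all 4 lists. The Control 2 peak also held a 95-nt exon, chr20:43681727-43681821, that is absent from the canonical transcript and present in 2 of 17 annotated STK4 transcripts. Another STK4 region, chr20:43603349-43603529, lay wholly outside the canonical transcript, on an exon that 5 of the 17 transcripts carry. It had weak peaks in Control 1 (score 0.0062), FUSO 1 (score 0.0021) and FUSO 2 (score 0.0017), none in Control 2, and no GGAC. STK4 peaks covered 422 and 780 nt in Control and 722 and 421 nt in FUSO, and the groups overlapped.

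SAV1 held the peaks with the smallest scores of the module, in 1 region of 1556 nt over all 5 exons, chr14:51101793-51134981 on the − strand. The scores were 1.6e-48 and 4e-49 in Control and 1.6e-47 and 3.2e-70 in FUSO. The Control lists each had 1 unbroken peak and the FUSO lists 2, covering 1167 and 1317 nt in Control and 1348 and 1079 nt in FUSO (exact permutation p = 1.0 for the length). The groups differed in where the last peak ended. In Control it ended at 1210 and 1360 nt of the mRNA, ahead of the end of the CDS at 1491 nt. In both FUSO lists it reached 1599 nt, in the 3′UTR. In FUSO 1 this was the end of the peak with a score of 1.6e-47. In FUSO 2 it was the end of a separate 211-nt peak with a score of 8.3e-05, at 72.2% of its list. The FUSO 2 peak with a score of 3.2e-70 ended at 1150 nt, ahead of both Control ends. The peaks began at 44 nt except in FUSO 2, where they began at 283 nt. A stretch of 211 nt of SAV1 was in both FUSO lists and in neither Control list, which the merged region does not show. Of the 4 GGAC sites of the region, the one in capitals lies in exon 3 at chr14:51111631-51111660. Another, left in small letters, follows it in the same stretch.
SAV1 exon 3: ctggctggtctgtGGACtggacaatgagag

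The LATS kinases had the most nt covered by peaks of the members in every list, and the largest share of covered nt common to all 4. As a share of the mRNA, SAV1 (34.9% to 43.6%) was more covered than LATS1 (25.2% to 33.1%) and LATS2 the most (41.1% to 51.4%). In LATS1, 1710 of the 2761 nt in any peak (61.9%) were in all 4 lists, and in LATS2 1861 of 3269 nt (56.9%). Over the module 42.1% of the covered nt were in all 4 lists, 1.91% in both Control lists only and 4.77% in both FUSO lists only, beside 52.0%, 3.47% and 2.48% over all peaks. NF2 and SAV1 supplied most of the 603 nt seen in both FUSO lists only, with 182 and 211 nt.

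LATS1 had a region of 1469 nt in exon 4, chr6:150004120-150005588 on the − strand, of which 1374 nt are CDS of the canonical transcript. Its scores were 1e-15 and 1.6e-38 in Control and 1e-43 and 1.6e-22 in FUSO, with no order by group. A 420-nt CDS region in exon 5 and a 540-nt region mostly in exon 8 were also in all 4 lists. Single lists held the others, a 211-nt region of exons 5 and 6 in Control 2 (score 0.00035) and a 121-nt region at the start codon in FUSO 1 (score 0.0055). LATS1 peaks covered 1950 and 2460 nt in Control and 2251 and 1920 nt in FUSO, and the groups overlapped. Of the 6 GGAC sites in the exon 4 region, the one shown lies at chr6:150004927-150004956.
LATS1 exon 4: cattagtgtacctGGACtgcaaacaaattg

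LATS2 had 5 regions, of which 4 were in all 4 lists, from the 5′UTR to the 3′UTR of its 8 exons on the − strand of chromosome 13. The strongest spanned the stop codon, chr13:21548584-21553868, 959 nt of exons 7 and 8, with scores of 2.5e-27 and 5e-28 in Control and 4e-39 and 1.6e-28 in FUSO. Next to it, 900 nt of CDS in exons 4 to 7 had scores of 1.3e-09 and 3.2e-26 in Control and 1.3e-26 and 6.3e-21 in FUSO. LATS2 peaks covered 2401 and 2550 nt in Control and 2849 and 2279 nt in FUSO, so the FUSO values enclosed both Control values (exact permutation p = 1.0). LATS2, whose mRNA lay higher in both FUSO inputs, had neither a lost nor a gained region. Of the 6 GGAC sites of the stop codon region, the one shown lies in the CDS at chr13:21549194-21549223.
LATS2 exon 8: gcaccaaggcctgGGACacactcacctcgc

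**Figure D5:**
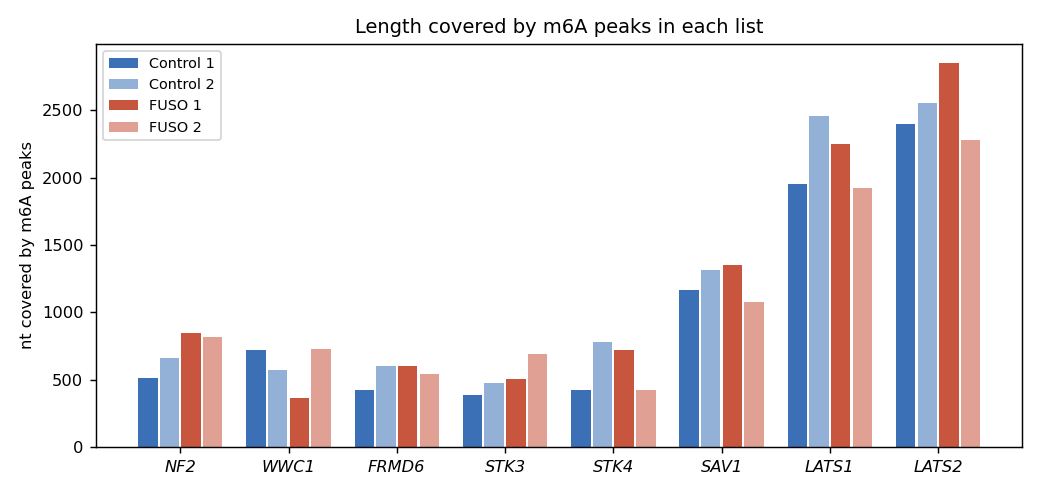
Length covered by m6A peaks in nt (bars from 0) in each of the 4 lists for the 8 members with a peak. Both FUSO bars lie above both Control bars for NF2 (843 and 814 against 512 and 662 nt) and STK3 (507 and 687 against 389 and 478 nt), and the groups overlap for the other 6 members.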

How the data were processed

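Expression came from the 4 input libraries and m6A peaks from 4 lists, 1 for each IP library and its input. The methods name cutadapt, and the submitters' processing notes Trim Galore 0.3.3, HISAT2 2.1.0 and StringTie, on hg19. The deposited expression values were FPKM, which the authors computed with StringTie. The deposited peak lists gave 1 value per peak, read here as the authors' p-value before correction. The methods name MACS2 with a Fisher exact test, while the layout with exon blocks is that of another program, and which one made the lists was not settled. No column of samples outside the labels was found (0).

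The members and the lists of pathway genes were chosen with earlier results of these data known. Named were all 10 members and, of each wider list, every called gene and the 4 with the largest absolute log2 fold change among those tested. Genes that averaged 1 FPKM or more over the inputs were tested on log2(FPKM + 1) by limma 3.58.1 (lmFit, eBayes with trend; R 4.3.3), a pseudocount that understates the change of low genes, with Benjamini-Hochberg adjustment over all 11088 genes. The count model of the study could not be used, since FPKM are not counts. Totals per list were compared by two-sided exact permutation tests. Only the spread between these libraries is measured by the p-values. Relative input depth came from ratios of values up to 0.05 FPKM. No pair of libraries held identical values. Annotation and sequence came from GRCh37 with GENCODE release 44 lifted to it, read in Python 3.11.15 with pandas 2.3.3 and pyfaidx 0.9.0.4, and coordinates are 1-based. A region lay on a transcript when at least 90% of its bases did. GC content of exons was known for 99.1% of the genes tested. Scripts were tested on simulated data. Alternatives were a pseudocount of 0.1, no filter, quantile normalization, no trend, a replicate block, a GC correction and leaving out each library for expression, and for peaks p at or below 1e-05, a reciprocal overlap of 50%, leaving out each list and classes by region start.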

Additional observations from a re-analysis of the deposited data

How the results depend on the processing

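The count of 0 members called for mRNA was the same under all 10 alternatives, the replicate block included. The count of members whose groups did not overlap, 3, was 2 to 4 with all libraries, beside 42.9% to 48.3% of all genes tested. The 2 under GC correction were LATS1 and LATS2. The 4 under quantile normalization were SAV1, LATS2 and MOB1A, higher in FUSO, and WWC1, lower in FUSO. Of the members, only LATS2 was without overlap under every alternative. With 1 input left out the count was 6 to 8, beside 69.6% to 79.3% of all genes tested. Members with a lost region numbered 0 under a reciprocal overlap of 50%, where 2.61% of all regions were lost, and 1 to 2 with a list left out. Members with a gained region numbered 0 with only peaks of p at or below 1e-05, where 2.25% of all regions were gained. They numbered 2 to 4 with a list left out, the 4 without FUSO replicate 1. With a list left out, gained regions rose from 2.38% of all regions to between 4.31% and 11.3%, and lost regions from 2.64% to between 4.44% and 11.3%. Members with a region in all 4 lists were 6 of 10 under the stricter p and under the reciprocal overlap, and 8 otherwise. No share over all genes was set beside the counts of 6, so they are not read as a trait of the module. The difference in number of peaks (3.0, FUSO minus Control) was 1.0 under the stricter p and 1.5 to 4.5 with a list left out. The difference in covered length (273 nt) turned with a list left out, from -445 nt without Control replicate 1 and -234 nt without FUSO replicate 1 to 991 nt without Control replicate 2.

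The libraries shared only replicate numbers, and the correlation across genes of the difference between replicates in Control with that in FUSO was 0.0243. With the replicate block, 90 genes were called in place of 89, 0 members were called, and the limma adjusted p of NF2 was 0.264 with its log2 fold change as before. At an unadjusted limma p under 0.05 there were then 2 members, NF2 and LATS2, in place of 1. Of all genes tested there were 1460 in place of 1496. Within replicate numbers, the differences were 0 and 6 peaks (mean 3.0) and 1498 and -952 nt (mean 273). The log2 fold change of STK4 ran from -0.52 to 0.021 with 1 library left out, turning without FUSO replicate 2. That of MOB1B turned to -0.014 under quantile normalization and to -0.0024 under GC correction, and ran from -0.33 to 0.42 with 1 library left out (-0.27 without FUSO replicate 1). CTGF lost its call with no filter on low values (log2 fold change 0.70, adjusted p = 0.105), where 40 of all genes were called. With 1 library left out FRMD6 ran from 0.019 to 0.15, MOB1A from 0.019 to 0.12, SAV1 from 0.049 to 0.16, LATS1 from 0.040 to 0.10 and WWC1 from -0.15 to -0.0075, none of them called. Placing regions by their start moved the CDS count from 17 to 15. The cause of these shifts was not tested. The unknown depth of the IP libraries limits what the absence of a peak in a list can show.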
